A study of Mus musculus with 6 samples.

Results

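The CXC chemokine genes described here are Cxcl1, Cxcl2, Cxcl3, Cxcl5, Ppbp, Pf4, Cxcl9, Cxcl10 and Cxcl16, 9 of the 54532 genes in the deposited table. They were chosen by gene name, and both they and the gene lists used below were chosen with earlier results of these data known. Counts of them set beside shares over all genes are therefore a description. The 9 genes form a set of 5 neutrophil-attracting members (Cxcl1, Cxcl2, Cxcl3, Cxcl5 and Ppbp) and a set of 4 others. RNA was sequenced from 6 samples of primary macrophages of wild-type (WT) mice. Before infection 3 samples received vehicle and 3 received rmMETRNL for 6 h, a treatment named for METRNL (meteorin-like, a secreted protein). All 6 then met the yeast Candida albicans for 6 h. No unchallenged sample is part of the comparison, so it sets 1 pretreatment against the other on a background of fungal challenge. The labels state neither mouse age nor the tissue of origin, nor whether the 3 samples of a group were separate animals or cultures. The p-values therefore cover only sample-to-sample spread, some or all of which could be technical. Columns Wt of the table were taken to be vehicle and columns Wr to be rmMETRNL because of the letter r, and each direction given here depends on this assignment.

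Chemokines are small secreted proteins that guide leukocytes along a gradient, and the CXC family is named for a single residue between the first pair of conserved cysteines. Members that carry the tripeptide Glu-Leu-Arg just before those cysteines bind the receptor CXCR2 and recruit neutrophils, the cells that clear Candida from tissue. Members without it do other work: CXCL9 and CXCL10 are interferon-induced ligands of the T-cell receptor CXCR3, CXCL16 is a membrane-anchored ligand of CXCR6, and PF4 (CXCL4) is a platelet protein that macrophages also make. Macrophages switch on Cxcl1, Cxcl2 and Cxcl3 through NF-kappaB when they sense microbes.

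The promoters are shown because the members with the highest FPKM here, Cxcl2, Cxcl1 and Cxcl3, share an NF-kappaB-type word just upstream of their start. Upstream windows were found for 7 of the 9 members in the RefSeq table for GRCm38.p6, all but Cxcl5 and Cxcl16. The word GGAATTTCC, searched on both strands in the 250 bases before the RefSeq start, was in 4 of these 7 windows and in 0.286% of the 32851 windows of the table. A looser form that contains it, GGNNTTNCC, was in 5 of the 7 and in 13.5% of all windows. The matches in Cxcl1, Cxcl2 and Cxcl3 come from neighbouring members of a gene family and need not be independent. Other words searched were TGANTCA, in 2 of the 7 and in 6.75% of all windows, and TATAAA, in 3 of the 7 and in 12.4%. The stretch from 120 to 29 bases before the start is printed for Cxcl1 (chr5:90891125-90891216), Cxcl2 (chr5:90903779-90903870), Cxcl3 (chr5:90785981-90786072) and Pf4 (chr5:90772315-90772406), all on the plus strand, with both forms in capitals.
Cxcl1: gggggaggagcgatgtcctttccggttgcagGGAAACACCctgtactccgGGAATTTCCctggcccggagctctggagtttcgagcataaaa
Cxcl2: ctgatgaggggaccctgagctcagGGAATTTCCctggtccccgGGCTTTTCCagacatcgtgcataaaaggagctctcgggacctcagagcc
Cxcl3: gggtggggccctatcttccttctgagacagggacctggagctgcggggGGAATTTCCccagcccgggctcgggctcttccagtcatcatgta
Pf4: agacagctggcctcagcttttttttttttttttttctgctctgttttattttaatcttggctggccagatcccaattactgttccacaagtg

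The Cxcl10 promoter is set beside them because it carries the same word in a gene that was almost silent here. Its bases from 220 to 60 before the start (chr5:92348949-92349109, minus strand) are printed as the gene reads, with both NF-kappaB-type forms and an interferon-response core, GAAANNGAA, in capitals.
Cxcl10: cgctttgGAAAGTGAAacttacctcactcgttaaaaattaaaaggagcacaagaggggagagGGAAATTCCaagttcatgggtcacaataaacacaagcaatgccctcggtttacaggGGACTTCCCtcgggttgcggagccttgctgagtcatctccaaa
The word GGAATTTCC starts 70 bases before the RefSeq start in Cxcl1, 96 in Cxcl2 and 72 in Cxcl3, and lies on the opposite strand 158 bases before it in Cxcl10. The RefSeq start of Cxcl2 lies 28 bases downstream of the deposited gene start, against 4 for Cxcl1 and -2 for Cxcl3. The larger distance in Cxcl2 therefore depends on the start used. The interferon-response core was in the Cxcl9 and Cxcl10 windows and in 7.13% of all windows. Neither NF-kappaB-type form was in the Pf4 or Ppbp window. A match is a string of letters in a window and does not show that a factor binds there.

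The deposited values are FPKM (fragments per kilobase and per unit of library depth), so levels compared between genes depend on the gene length used. The FPKM values resolved into whole reads or read pairs, which summed to between 13235001 and 18145733 per library. Macrophage markers were present, with 12 of 12 above a mean of 1 FPKM, and the retina markers checked because the extraction text mentions retinas summed to 0.108 to 0.259 FPKM per library, with Rpe65 at 0 reads in all 6. rmMETRNL library 3 stood apart in that its deviations from the 6-library mean correlated with gene length across genes with a Spearman coefficient of 0.31, against -0.17 to -0.02 in the other libraries. Without it the log2 fold changes of Cxcl1, Cxcl2, Cxcl3, Cxcl5, Pf4 and Cxcl16 were 0.26, 0.20, 0.06, 0.59, 0.37 and -0.10, each with the sign it had with all 6 libraries, and that of Ppbp was -0.14.

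Cxcl2 dominated the family. It accounted for 75.8% to 78.3% of the summed FPKM of the 9 genes in each library, and the 5 neutrophil-attracting genes together for 98.6% to 98.9%. Reads of the 9 genes made up 1.403%, 1.502% and 1.511% of the vehicle libraries and 1.60%, 1.72% and 1.83% of the rmMETRNL libraries. The 3 rmMETRNL libraries thus gave a larger share of their reads to these genes than any vehicle library did.

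Averaged over the 6 libraries the order of FPKM levels was Cxcl2 (5597), Cxcl1 (830), Cxcl3 (751), Pf4 (69.1), Cxcl16 (21.6), Cxcl5 (11.7), Ppbp (1.19), Cxcl10 (0.321) and Cxcl9 (0.00668). Cxcl1 and Cxcl3 overlapped in vehicle libraries, and the other neighbours in this order did not overlap over the 6 libraries. The order of Cxcl1 and Cxcl3 depended on the length used. For Cxcl1, Cxcl2, Cxcl3 and Cxcl10 the deposited gene length (1875, 2068, 3498 and 2252 bases) equals the whole span of the gene, introns included, while their principal coding transcripts in GENCODE M21 are 953, 1109, 1016 and 1094 bases long. With reads divided by that transcript's length instead, in units of reads per kilobase and 1e6 library reads, vehicle libraries gave 2543 ± 71.1 for Cxcl3 and 1484 ± 37.0 for Cxcl1 (± is the SD of n = 3 throughout). Cxcl3 was then above Cxcl1, and Cxcl2, at 9550 ± 468, still led.

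**Figure D1:**
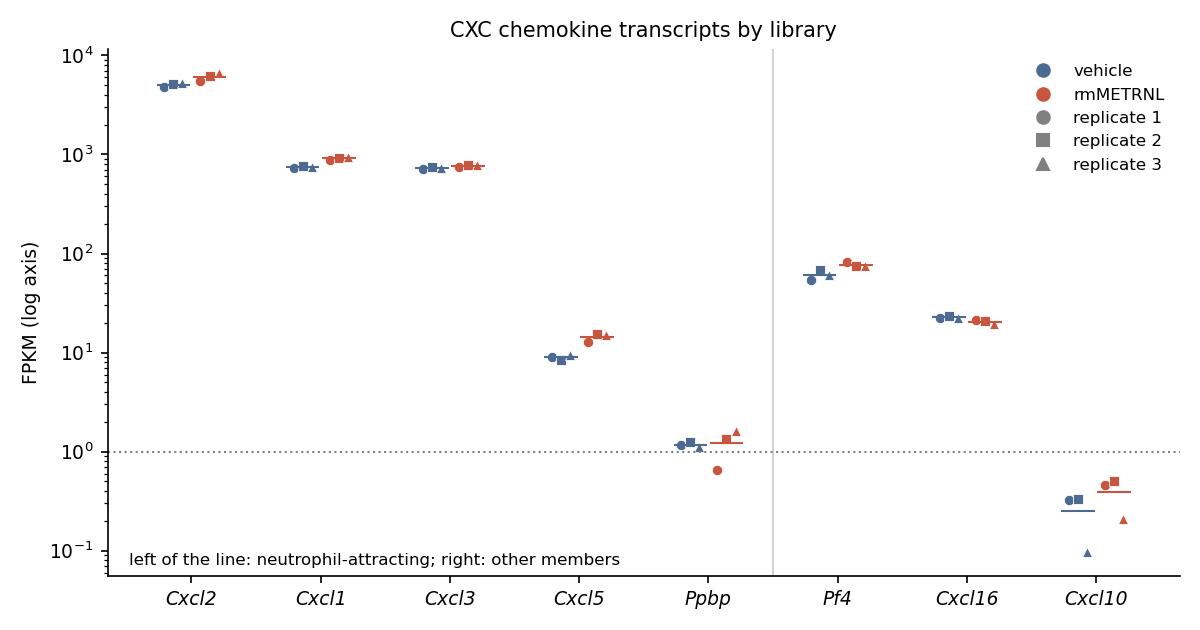
FPKM (log axis) of 8 CXC chemokine genes in each of the 6 libraries, with vehicle in blue and rmMETRNL in red, a marker shape for each replicate, short lines at the group means and a dotted line at 1 FPKM, the level above which genes were tested. Cxcl2 lies between 4798 and 6619 FPKM, Cxcl1 and Cxcl3 between 715 and 943, and Cxcl10 below 1. Cxcl9, with 0 or 1 read in a library, is not drawn.

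Each member averaging 1 FPKM or more was compared between the groups within a limma fit over 9867 genes on log2(FPKM + 1), with Benjamini-Hochberg adjustment. With the threshold at 0.05, limma called 0 of the 7 members that reached this level. It called 0 of all 9867 genes (0%), among which the smallest adjusted p was 0.103, and 1448 had an unadjusted p under 0.05. Limma voom on the recovered reads called 2 of the 7 members, Cxcl1 and Cxcl5, against 61 of all genes (0.618%). In 4 of the 7, Cxcl1, Cxcl2, Cxcl5 and Pf4, every rmMETRNL value exceeded every vehicle value, which was so in 10.9% of all genes tested. In 1 of the 7, Cxcl16, every rmMETRNL value was below every vehicle value, as in 10.6% of all genes tested. Cxcl9 and Cxcl10 were under the level tested.

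Cxcl5, whose product draws neutrophils through CXCR2, had the largest log2 fold change of the 7 tested members. It stood at 9.10, 8.47 and 9.43 FPKM in vehicle libraries 1, 2 and 3 and at 12.8, 15.3 and 15.2 FPKM in rmMETRNL libraries 1, 2 and 3. All 3 rmMETRNL libraries were above all vehicle libraries, with rmMETRNL library 1 the lowest of them. The means were 9.003 ± 0.488 and 14.4 ± 1.41 FPKM, a ratio of 1.60, from 211 to 447 reads per library. The log2 fold change was 0.62 (SE 0.08, 95% interval 0.43 to 0.82, limma adjusted p = 0.148), and voom gave 0.66 (adjusted p = 0.0131). The gene (ENSMUSG00000029371) lies at chromosome 5, 90759360 to 90761624, plus strand, GRCm38.

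Cxcl1, the mouse counterpart of the growth-regulated oncogene chemokines and an early neutrophil attractant, stood at 728, 763 and 755 FPKM in vehicle libraries and at 875, 917 and 943 FPKM in rmMETRNL libraries. The groups were separated by a gap wider than the range within the vehicle group. The means were 749 ± 18.6 and 912 ± 34.6 FPKM, a ratio of 1.22, with a log2 fold change of 0.28 (SE 0.04, 95% interval 0.18 to 0.39, limma adjusted p = 0.151). Voom gave 0.27 (adjusted p = 0.0194). Cxcl1 (ENSMUSG00000029380, chromosome 5, 90891241 to 90893115) shared 0% of its 31-base words with another gene.

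Cxcl2, also known as macrophage inflammatory protein 2, stood at 4798, 5159 and 5296 FPKM in vehicle libraries and at 5574, 6136 and 6619 FPKM in rmMETRNL libraries. The groups did not overlap, and the rmMETRNL values were the more spread. The means were 5085 ± 257 and 6110 ± 523 FPKM, a ratio of 1.20 similar to that of Cxcl1, with a log2 fold change of 0.26 (SE 0.07, 95% interval 0.09 to 0.44, limma adjusted p = 0.243). Voom gave 0.25 (adjusted p = 0.0560). Cxcl2 (ENSMUSG00000058427, chromosome 5, 90903871 to 90905938) shared 7.59% of its 31-base words with other genes, namely Cxcl3.

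Cxcl3, a close relative of Cxcl2, stood at 715, 754 and 731 FPKM in vehicle libraries and at 745, 784 and 776 FPKM in rmMETRNL libraries. The groups overlapped, since rmMETRNL library 1 was below vehicle library 2. The means were 733 ± 19.5 and 768 ± 20.8 FPKM, a ratio of 1.05, with a log2 fold change of 0.07 (SE 0.04, limma adjusted p = 0.501). The 95% interval of -0.03 to 0.17 lies below the estimates for Cxcl1 and Cxcl2, but it overlaps the interval of Cxcl2, 0.09 to 0.44. Counts were high, 35241 to 46544 reads per library. Cxcl3 (ENSMUSG00000029379, chromosome 5, 90786103 to 90789600) shared 5.46% of its 31-base words with other genes, mainly Cxcl2.

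Ppbp encodes pro-platelet basic protein, which is cut to a CXCR2 ligand. It was near the level tested, at 1.16, 1.24 and 1.12 FPKM in vehicle libraries and 0.653, 1.35 and 1.62 FPKM in rmMETRNL libraries. The rmMETRNL libraries held both the lowest and the highest value, so the groups overlapped. Only 11 to 26 reads per library fell on the gene (ENSMUSG00000029372, chromosome 5, 90768518 to 90770063), and the 95% interval of the log2 fold change, -0.43 to 0.42, spans the estimates of Cxcl1, Cxcl2 and Cxcl3. The log2 fold change was -0.0024 and turned to 0.19 without rmMETRNL library 1 and to 0.02 without vehicle library 2.

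**Figure D2:**
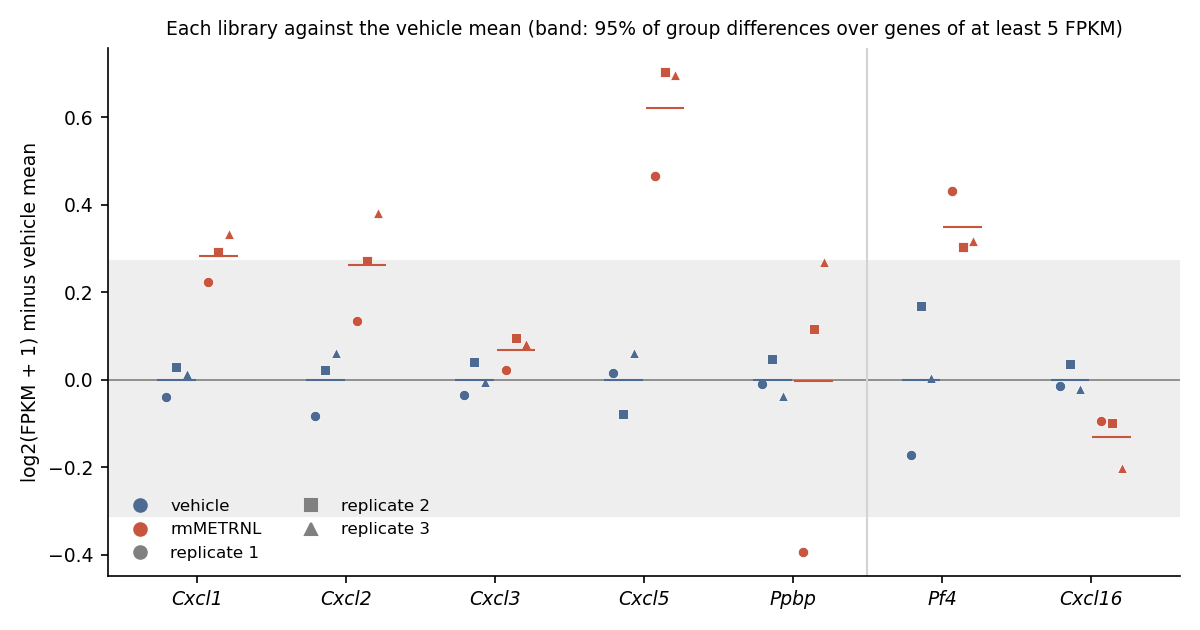
log2(FPKM + 1) of the 7 tested members in each library minus the mean of the vehicle libraries, with vehicle in blue, rmMETRNL in red and short lines at group means. The grey band runs from -0.31 to 0.27, the middle 95% of log2 fold changes over all genes averaging 5 FPKM or more. Cxcl5, Cxcl1 and Pf4 have means above the band, Cxcl2 just inside it, and Cxcl3 near 0.

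Pf4 is the only one of the other members with higher values and no overlap, and it lacks the Glu-Leu-Arg tripeptide. It stood at 53.5, 68.1 and 60.7 FPKM in vehicle libraries and at 81.9, 74.9 and 75.6 FPKM in rmMETRNL libraries. The groups did not overlap, and the vehicle libraries were the more spread. The means were 60.8 ± 7.26 and 77.4 ± 3.89 FPKM, a ratio of 1.27, with a log2 fold change of 0.35 (SE 0.09, 95% interval 0.14 to 0.56, limma adjusted p = 0.233, voom adjusted p = 0.0768). Pf4 is best known as a platelet gene. The 10 platelet and megakaryocyte markers summed to 1.30 to 2.34 FPKM in vehicle and 2.21 to 2.27 FPKM in rmMETRNL libraries, and 1 of them, Tubb1, was tested (14 to 32 reads per library, groups overlapping). Gp1bb was at 0 reads in every library and Itga2b had 11 to 21 reads. Gp1ba, at 1 to 15 reads, was separated upward, at 0.0486, 0.0826 and 0.0202 FPKM in vehicle libraries against 0.118, 0.234 and 0.372 FPKM in rmMETRNL libraries. Gp5, at 1 to 4 reads, was separated downward. It had 0.120, 0.0681 and 0.0750 FPKM in vehicle libraries against 0.0293, 0.0290 and 0.0614 FPKM in rmMETRNL libraries. The part of platelet RNA in the Pf4 values was not tested. Pf4 (ENSMUSG00000029373) lies at chromosome 5, 90772435 to 90773383.

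Cxcl16 was the member with lower values. It stood at 22.4, 23.2 and 22.3 FPKM in vehicle libraries and at 21.1, 21.1 and 19.5 FPKM in rmMETRNL libraries, so the groups did not overlap and rmMETRNL library 3 was lowest. The means were 22.6 ± 0.513 and 20.6 ± 0.9004 FPKM, a ratio of 0.910, with a log2 fold change of -0.13 (SE 0.05, 95% interval -0.25 to -0.01, limma adjusted p = 0.319, voom adjusted p = 0.310). Cxcl16 (ENSMUSG00000018920, chromosome 11, 70453983 to 70459984, minus strand) shares 18.3% of its exon bases with Zmynd15. Zmynd15 itself was low, at 1.09 ± 0.396 FPKM in the vehicle group and 0.918 ± 0.164 FPKM after rmMETRNL.

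The interferon-induced pair was close to absent. Cxcl10 (ENSMUSG00000034855, chromosome 5, 92346638 to 92348889) had 11, 10 and 4 reads in vehicle libraries and 16, 18 and 7 reads in rmMETRNL libraries, or 0.322, 0.332 and 0.0975 against 0.457, 0.509 and 0.210 FPKM. The groups overlapped, with library 3 lowest in both, and the gene was not tested. It shared 4.47% of its 31-base words with Art3, which had at most 1 read in a library. Cxcl9 (ENSMUSG00000029417, chromosome 5, 92321347 to 92328079) had 1, 0 and 1 read in vehicle libraries and 0 in each rmMETRNL library, where a count of 0 allows up to 3 reads, 0.0634 to 0.0671 FPKM. No fold is given at that depth.

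Set against each other, the 2 sets differed in summed level through Cxcl1, Cxcl2 and Cxcl3, while Cxcl5 and Ppbp were each below Pf4 and Cxcl16. The 5 neutrophil-attracting genes had a median log2 fold change of 0.26, with 4 of 5 above 0 and 3 of 5 separated upward, against 10.9% of all genes tested. Of the 4 others 2 were tested, Pf4 and Cxcl16, and they went opposite ways, so their median of 0.11 describes neither. It was 0.06 without vehicle library 1 and 0.07 with no filter on low values, which adds Cxcl9 and Cxcl10. Over all 9867 genes the median was -0.0056 and 48.4% were above 0. The summed FPKM of the neutrophil-attracting set was 6577 ± 287 with vehicle and 7805 ± 576 with rmMETRNL, a ratio of 1.19, and that of the other set, nearly all Pf4 and Cxcl16, was 83.7 ± 7.69 and 98.4 ± 4.44, a ratio of 1.18.

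Ratios within a library do not depend on how libraries were scaled. The 4 ratios given here were chosen after the values were seen and are a description. An exact permutation test over the libraries gave p = 0.1 for each ratio over Cxcl3 and p = 0.8 for Cxcl2 to Cxcl1. It cannot decide whether a ratio differs, since 3 libraries against 3 cannot give an exact permutation p under 0.1. The ratio of Cxcl1 to Cxcl3 was 1.02, 1.01 and 1.03 in vehicle libraries and 1.17, 1.17 and 1.22 in rmMETRNL libraries. The ratio of Cxcl2 to Cxcl3 was 6.71, 6.84 and 7.25 against 7.49, 7.83 and 8.53. The groups did not overlap for either ratio, nor for Cxcl5 to Cxcl3 (0.0127, 0.0112 and 0.0129 against 0.0172, 0.0195 and 0.0196). The ratio of Cxcl2 to Cxcl1 overlapped widely, at 6.59, 6.76 and 7.01 against 6.37, 6.69 and 7.02. In log2 terms the group differences were 0.22 for Cxcl1 to Cxcl3, 0.20 for Cxcl2 to Cxcl3, 0.61 for Cxcl5 to Cxcl3 and -0.02 for Cxcl2 to Cxcl1.

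**Figure D3:**
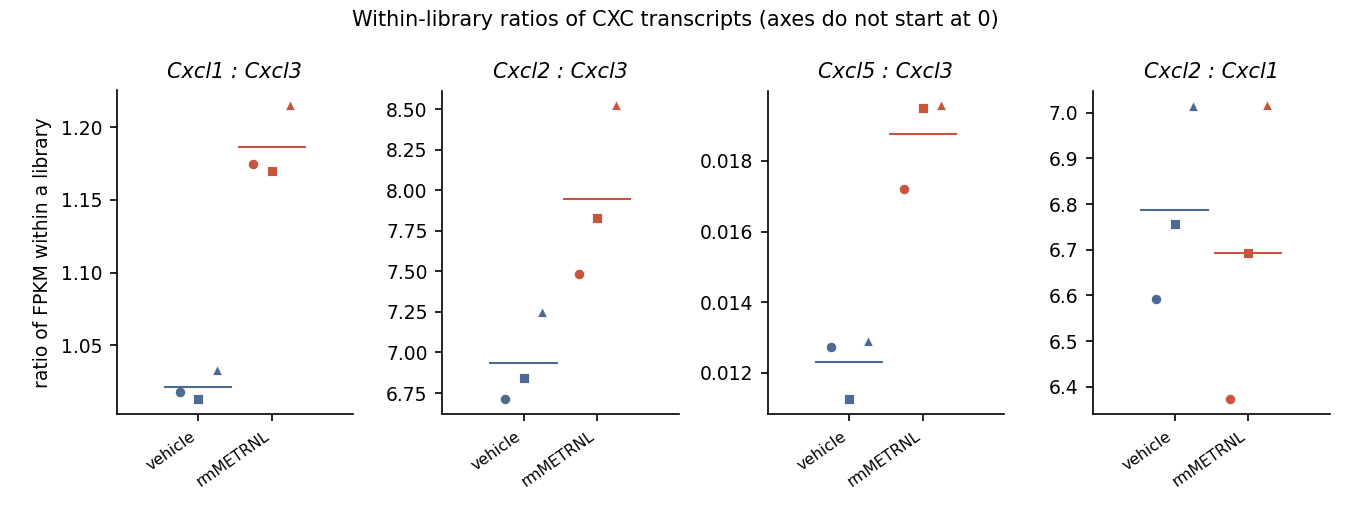
FPKM ratios between pairs of CXC genes within each library, with vehicle in blue, rmMETRNL in red, marker shapes for replicates and short lines at group means (each axis has its own range and does not start at 0). The groups are apart for the 3 ratios over Cxcl3 and interleave for Cxcl2 over Cxcl1.

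The neutrophil-attracting genes and Pf4 sit together on the plus strand of chromosome 5 within 146.6 kb, from Cxcl5 through Ppbp, Pf4, Cxcl3, Cxcl15 and Cxcl1 to Cxcl2. Levels differed strongly between neighbours. Ppbp, at 1.17 FPKM in vehicle libraries, starts 9.16 kb after the start of Cxcl5 and ends 2.37 kb before Pf4, at 60.8 FPKM. Cxcl15, a lung chemokine gene, lies 4.93 kb beyond Cxcl3 and had at most 2 reads in a library. Cxcl3 lies 12.7 kb beyond Pf4, and Cxcl1 and Cxcl2, which had the similar ratios, are the last pair, with 10.8 kb between them. Cxcl9, Cxcl10 and Cxcl11 form a separate cluster of 44.1 kb on the same chromosome in which no gene had more than 18 reads in a library.

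**Figure D4:**
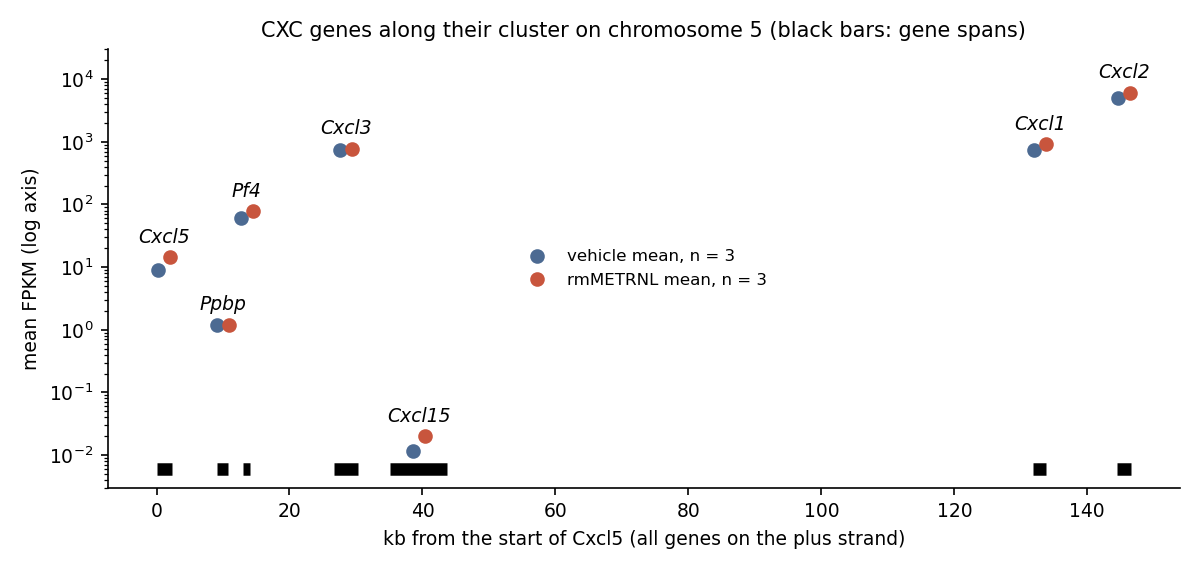
Mean FPKM (log axis) of the 7 CXC genes between Cxcl5 and Cxcl2 against their distance in kb from the start of Cxcl5, with vehicle means in blue and rmMETRNL means in red (n = 3 each, drawn side by side) and black bars for the gene spans. The highest levels are at Cxcl3, Cxcl1 and Cxcl2, and Cxcl15, between Cxcl3 and Cxcl1, is the lowest.

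Of 6 other CXC ligand genes, 1 was tested. Cxcl14 stood at 5.24 ± 0.463 FPKM in the vehicle group and 4.77 ± 0.342 FPKM after rmMETRNL, and the groups overlapped (log2 fold change -0.11, SE 0.08, limma adjusted p = 0.557). Cxcl11, Cxcl12, Cxcl13, Cxcl15 and Cxcl17 had at most 5 reads in any library. Of these, Cxcl11 is annotated as a polymorphic pseudogene.

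Receptors of CXC chemokines and atypical chemokine receptors were mostly low, with 3 of 11 tested. Of these, 2 were separated upward, Ccrl2 and Cxcr4 (10.9% of all genes tested), and 1 downward, Cxcr6 (10.6%). Ccrl2, an atypical receptor that presents chemerin, had 222 ± 3.94 FPKM in the vehicle group and 281 ± 10.96 FPKM after rmMETRNL, was not called by limma (adjusted p = 0.148) and was the 1 gene of the list that voom called (adjusted p = 0.0125, with 0.618% of all genes called). Cxcr4, the receptor for CXCL12, had 37.4 ± 1.57 and 43.4 ± 2.300 FPKM (limma adjusted p = 0.238). Cxcr6, the receptor for CXCL16, had 1.30 ± 0.182 and 1.04 ± 0.0940 FPKM (limma adjusted p = 0.481). Cxcr2, the neutrophil receptor, had 10 to 22 reads per library and was not tested. Nor were Cxcr1, with 9 to 28 reads per library, and Cxcr3, the receptor for CXCL9 and CXCL10, with 7 to 13.

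Enzymes that cut CXC chemokines had 5 of 8 genes tested, all 5 with a log2 fold change above 0 (48.4% of all genes tested) and 2 separated upward (10.9% of all). Adam17, a sheddase, stood at 32.1 ± 2.11 and 38.95 ± 2.60 FPKM (log2 fold change 0.27, SE 0.07, limma adjusted p = 0.238). Adam10, which sheds CXCL16 from the membrane, stood at 12.2 ± 0.323 and 13.9 ± 1.28 FPKM (log2 fold change 0.18, SE 0.07, limma adjusted p = 0.327). Mmp12, the macrophage elastase that clips Glu-Leu-Arg chemokines, was high in both groups at 621 ± 44.9 and 630 ± 17.2 FPKM.

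Regulators of CXC chemokine transcripts were all 10 tested, with 8 above 0 (48.4% of all genes tested), 7 separated upward (10.9% of all) and a median log2 fold change of 0.11. Limma called 0 and voom 1 (0.618% of all), Nfkbiz (voom adjusted p = 0.0182), which encodes a nuclear NF-kappaB cofactor and had 44.99 ± 1.14 and 59.0 ± 5.29 FPKM. The subunit gene Rel had 31.4 ± 1.55 and 37.2 ± 2.42 FPKM, while Rela had 40.1 ± 2.17 and 38.9 ± 2.24 FPKM. Zc3h12a, which encodes a nuclease that degrades inflammatory transcripts, had 93.8 ± 3.58 and 103 ± 4.79 FPKM, and Zfp36, whose product binds AU-rich transcripts, had 89.7 ± 5.30 and 89.3 ± 2.36 FPKM.

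The interferon route to Cxcl9 and Cxcl10 had 9 of 12 genes tested, 6 above 0, 1 separated upward and 1 downward. These separated counts are near the shares over all genes tested, 10.9% upward and 10.6% downward. The median log2 fold change was 0.05, and limma and voom each called 0. Ifnb1, the interferon-beta gene, had 0 reads in all 6 libraries, where 3 reads would be 0.220 to 0.299 FPKM, and Ifng had at most 2 reads. Irf7 had 1.78 ± 0.199 and 1.24 ± 0.242 FPKM (limma adjusted p = 0.300), and the receptor gene Ifngr1 had 13.7 ± 0.869 and 16.0 ± 0.750 FPKM (limma adjusted p = 0.262).

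**Figure D5:**
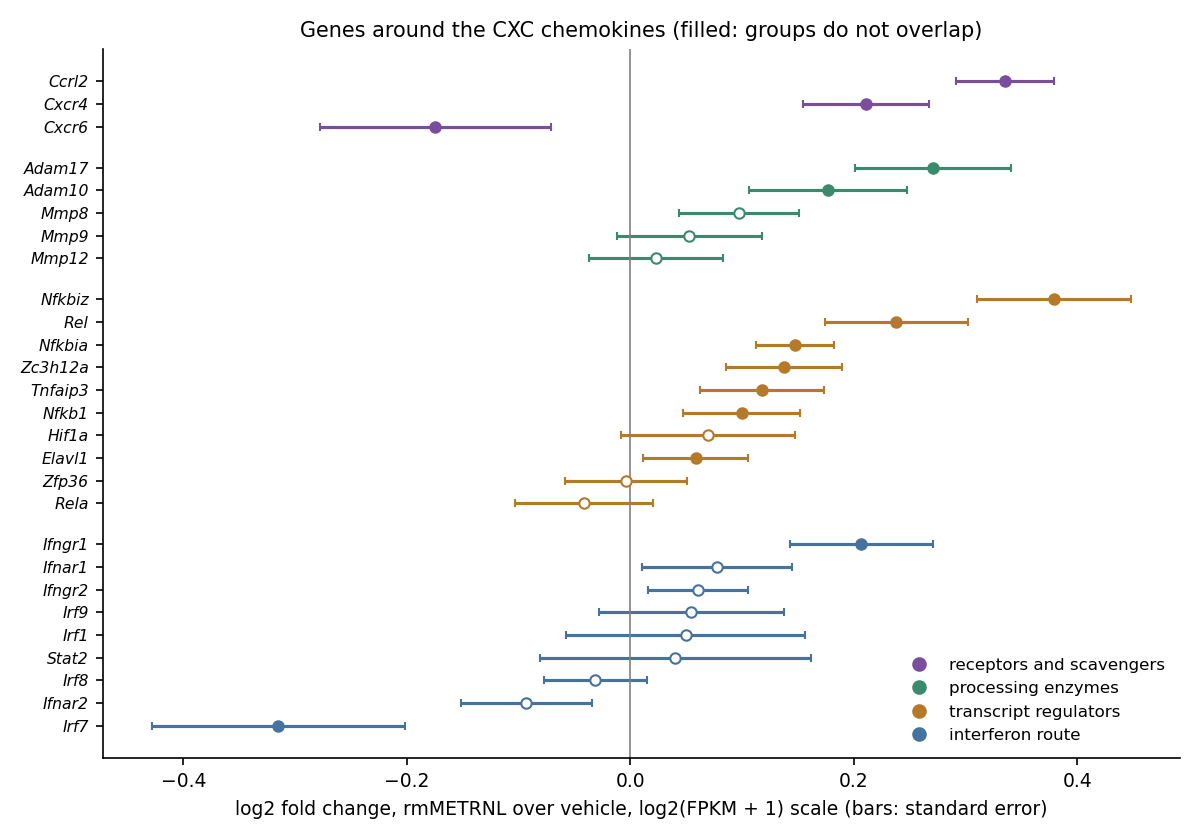
log2 fold change (rmMETRNL over vehicle, log2(FPKM + 1) scale, bars for the standard error) of the tested genes of 4 lists around the CXC chemokines, filled where the groups do not overlap. Ccrl2 and Nfkbiz have the largest positive values, and Irf7 the lowest.

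Neutrophils make several of these transcripts, so their markers were read beside the results. The 10 neutrophil markers summed to 183 to 193 FPKM in vehicle and 196 to 213 FPKM in rmMETRNL libraries, and 4 were tested. Ly6g had 2 to 7 reads per library and Elane 0. Of the 4 tested, 1 was separated upward (10.9% of all genes tested), S100a9, with 24.4 ± 0.781 and 34.8 ± 3.56 FPKM (limma adjusted p = 0.151). The groups overlapped for S100a8, with 83.7 ± 4.59 and 86.1 ± 0.564 FPKM, and for Mmp8, with 71.9 ± 1.56 and 77.0 ± 4.56 FPKM. They also overlapped for Retnlg, with 6.58 ± 1.31 and 6.49 ± 0.654 FPKM from 54 to 68 reads per library. The part of neutrophil RNA in the CXC values was not tested. In bulk RNA, more cells of a type and more RNA per cell cannot be told apart. Fibroblast markers, from cells that also make CXC chemokines, summed to 7.89 to 8.23 and 7.69 to 8.59 FPKM.

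As a description of likeness, the genes of at least 5 FPKM whose log2 values tracked Cxcl1 most closely over the 6 libraries were Ccrl2 (Pearson r 0.997), Tnf (0.996) and Mdm2 (0.994). Those closest to Cxcl5 were Map2k1 (0.994), Ptges (0.994) and Igsf6 (0.994). Of 5381 genes compared, 277 had an r over 0.9 with Cxcl1 and 258 with Cxcl5, and 6 libraries in 2 groups share depth and group. For Cxcl10, at 4 to 18 reads, the closest were Def6 (0.977), Slc30a5 (0.969) and Rufy1 (0.956).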

How the data were processed

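The data are FPKM values that the authors deposited for each gene and library, beside each gene's length in bases. Per the labels' protocols, libraries were made from 1 ug of total RNA with an Illumina TruSeq RNA kit, and GRCm38 and mm10 are the builds in the submitters' processing notes. Not given in the sources used here are the aligner, the counter and the strand setting. Reads from overlapping genes on opposite strands therefore cannot be told apart. Multiplied by length and divided by what 1 read is worth in that library, 100% of values came out whole (tolerance 0.05 reads), and these numbers were used as reads.

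Values were put on the log2(FPKM + 1) scale, and genes averaging 1 FPKM or more were compared by limma (3.58.1, R 4.3.3) with a trended prior variance. Tests were two-sided, and p-values were adjusted over all tested genes by Benjamini-Hochberg, with a threshold of 0.05. The scale understates the change of low genes. Alternatives were a pseudocount of 0.1, no filter, a minimum of 5 FPKM, median-of-ratios scaling, quantile normalization, TPM, voom on the recovered reads, a replicate block and leaving out each library. The fit was tested on simulated data. Members and lists were chosen with earlier results of these data known. All members, the genes of the lists and the 3 genes most like Cxcl1, Cxcl5 and Cxcl10 could be named, and Zmynd15 was named after its values were seen. Sharing of 31-base words and exon overlap came from GENCODE M21, and promoters from RefSeq (GRCm38.p6).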

Additional observations from a re-analysis of the deposited data

How the results depend on the processing

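Limma called 0 genes at a pseudocount of 0.1, a minimum of 5 FPKM, median-of-ratios scaling, quantile normalization and without each library in turn (0 to 0). It called 5 with no filter on low values and 1 on TPM, and voom on the recovered reads called 61, 40 higher and 21 lower. The cause was not tested. With the replicate block it called 0 (lowest adjusted p = 0.221). Deviations of same-numbered libraries correlated at -0.02, 0.01 and -0.05, against -0.07 to 0.08 for libraries of unlike number. Such values cannot show whether same-numbered samples shared an animal or a culture. Leaving out 1 library moved the median of the neutrophil-attracting members between 0.20 and 0.31 and that of the other members between 0.06 and 0.16. Cxcl1, Cxcl2, Cxcl3, Cxcl5, Pf4 and Cxcl16 kept the sign of their log2 fold change in every alternative run, and Cxcl1 and Cxcl5 passed only in voom. Ppbp changed sign without vehicle replicate 2 (0.02) and without rmMETRNL replicate 1 (0.19), and leaving out each library in turn gave -0.14 to 0.19. The log2 ratio of Cxcl1 to Cxcl3 in vehicle libraries, 0.03 on FPKM, was -0.78 per kilobase of the principal coding transcript, an alternative chosen after seeing the data. Depth limits Ppbp, Cxcl9 and Cxcl10, with at most 26, 1 and 18 reads per library.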

Other observations

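Beyond the CXC cluster on chromosome 5 lie genes of other kinds, several of them epidermal growth factor family ligands. Of 6 such neighbours (Areg, Ereg, Epgn, Btc, Rassf6 and Mthfd2l), 1 was tested. Areg, which encodes amphiregulin, averaged 2.98 ± 0.726 FPKM in the vehicle group and 1.86 ± 0.295 FPKM after rmMETRNL (mean ± SD, n = 3). Every rmMETRNL value was below every vehicle value, as in 10.6% of all genes tested. The log2 fold change was -0.47 (SE 0.15, limma adjusted p = 0.273), from 29 to 69 reads per library. Ereg, which encodes epiregulin, had 0.410 ± 0.101 and 0.592 ± 0.140 FPKM and was under the level tested.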
